A study of Homo sapiens with 12 samples.

Results

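Glioblastoma lines that had become resistant to temozolomide shared a set of higher transcripts led by interferon-stimulated genes, the chemokine gene CCL5, the repair gene MGMT and the aldo-keto reductases. The comparison was the average of 2 differences, U251TR minus U251MG and U87TR minus U87MG, taken over all 12 of the 12 RNA-seq libraries of the series. U251MG and U87MG are established human glioblastoma cell lines, and U251TR and U87TR are the resistant cells obtained from each of them by repeated exposure to rising doses of temozolomide in culture. There were 3 libraries for each of the 4 lines, and every line was grown in the same serum-containing medium. No group was described as being under the drug when its RNA was taken. Each parent has 1 resistant derivative, so a change seen in a derivative cannot be separated from the history of that 1 selected population. Separate cultures are not stated for the 3 libraries of a line, so each p-value measures the spread between these libraries, which may be technical.

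Temozolomide methylates DNA bases, and the lesion at the oxygen of guanine kills cells when mismatch repair acts on it during replication. MGMT, a suicide repair protein, takes that methyl group onto itself, and its gene is often silent in glioblastoma through promoter methylation. Interferon-stimulated genes are the antiviral program switched on when an interferon engages its receptor or when RNA and DNA sensors in the cell fire, and NRF2 targets are the detoxifying and antioxidant genes that oxidative and electrophilic stress turns on.

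Values are FPKM, fragment counts scaled to transcript length and library size. The table holds no read counts, so the depth behind each value is unknown and no counting interval is given. Between 13135 and 14122 genes had 1 FPKM or more in a library. VIM, the mesenchymal filament gene vimentin, was between 773 and 5373 FPKM and CD44 between 365 and 1134 FPKM in all libraries. PTPRC, which marks leukocytes, the epithelial marker CDH1 and the oligodendrocyte marker MOG did not pass 0.08 FPKM. Some markers of cells that a culture should lack were present. The neuronal marker SNAP25 was at 14.83 to 19.24 FPKM in U87, and the endothelial marker CDH5 at 5.87 to 11.95 FPKM in U251. The astroglial markers were uneven, since SOX2 had 0 FPKM in each U87MG library and between 204 and 242 FPKM in U251MG. U251MG replicate 2 stood apart from its group, with Spearman correlations over genes of 0.977 and 0.978 against 0.993 for the remaining pair, as did U87MG replicate 3, with 0.983 and 0.987 against 0.993. The U87TR libraries have codes from a separate run of numbers, so in U87 that run and resistance cannot be told apart.

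A gene was called where its Benjamini-Hochberg adjusted p from limma was under 0.05, over the 15449 genes with at least 1 FPKM in 3 or more libraries. The average change was called for 7669 genes (49.6%), of which 4236 were higher (27.4%) and 3433 lower (22.2%). A gene was counted as changed in both lines where the average, U251TR against U251MG and U87TR against U87MG each passed, with the same sign in each line. That held for 1336 genes (8.65%), with 711 higher (4.6%) and 625 lower (4.05%). In U251 5193 genes rose (33.6%) and 3029 fell (19.6%), and in U87 1635 rose (10.6%) and 2659 fell (17.2%). The genes higher in both lines were 13.7% of the U251 rises and 43.5% of the U87 rises, and those lower in both were 20.6% of the U251 falls and 23.5% of the U87 falls. In another 1074 genes both lines passed with opposite signs. Across all tested genes the changes in the 2 lines had a Pearson r of 0.1, a description over genes that are not independent and that share library depth and normalization within a line, and 50.9% of genes had the same sign in both.

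The members of the shared set moved further in U251 than in U87. The 711 higher genes had a median change of 0.85 in U251 and 0.62 in U87 on the log2(FPKM + 1) scale, and the 625 lower genes -0.56 and -0.5, while the medians over all tested genes were 0.1 and -0.05. At least a 2-fold change in each line was reached by 130 genes (0.841%), 99 higher and 31 lower. In 1275 of the 1336 genes the 3 resistant libraries lay all above or all below the 3 parental libraries in each line. Over all tested genes 15.3% did so, 8.11% with the resistant libraries higher and 7.2% with them lower. The 1336 were selected by tests on these same libraries, so their separation is no separate support. The size of the change differed between the lines in 462 of the 1336, and it was larger in U251 for 338 of them. For the other 874 no difference was called, which does not show that the changes were equal. Over all tested genes 7350 (47.6%) differed. The 1336 were chosen by their sign and call in each line, so the 2 counts are not like for like. The weakest gene inside the limit was ABCE1, a ribosome recycling factor, with a largest adjusted p of 0.0499, and the nearest outside was DUT, a dUTPase, at 0.05. Leaving out both U251MG replicate 2 and U87MG replicate 3 raised the shared set to 2195 genes, 1123 higher and 1072 lower. After rescaling each library to a common total the share of higher genes was 68.7% of the shared set, in place of 53.2%, and 66.3% of the average calls, in place of 55.2%.

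**Figure D1:**
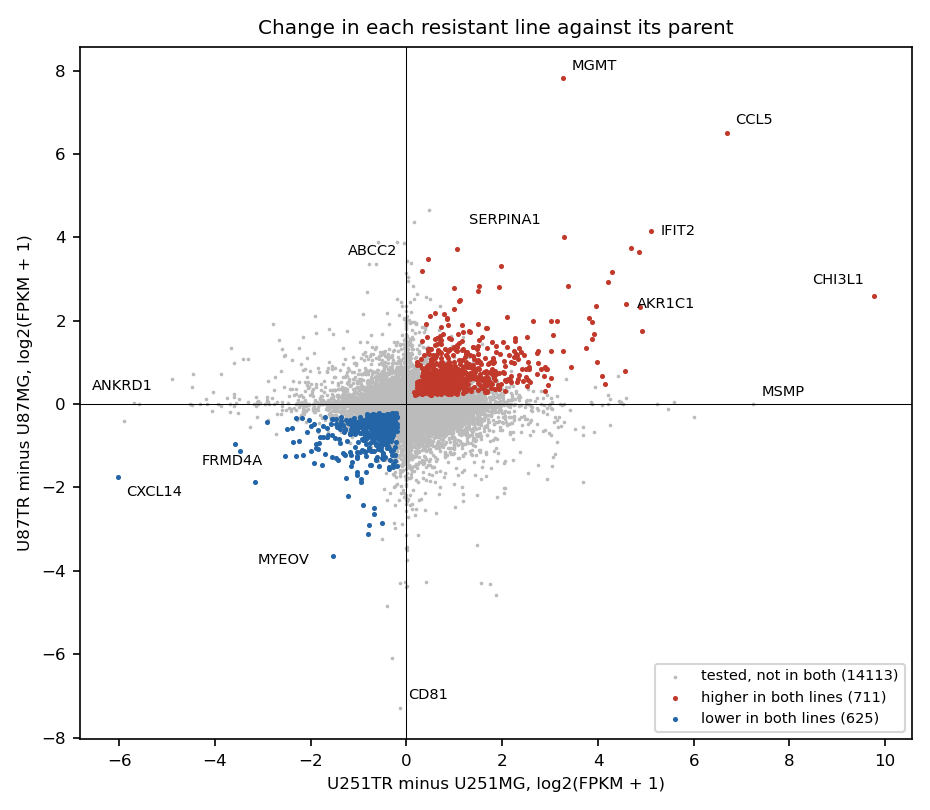
Change of each of the 15449 tested genes on the log2(FPKM + 1) scale in U251TR against U251MG (horizontal) and in U87TR against U87MG (vertical), 1 point per gene. Red points are the 711 genes higher in both lines, blue points the 625 lower in both and grey points the rest, and large grey changes lie along both axes.

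Of the 1256 shared genes that matched the RefSeq gene table, most were protein-coding, 96.2% of the higher and 97.2% of the lower genes, against 93.5% of the tested genes that matched. Pseudogenes were 3.1% of the tested genes and 0.5% of the higher genes. Among the higher genes 85 were under 1 FPKM on average in both parents. MGMT and IFNL1 were the 2 that were listed at 0 in every parental library. Among the lower genes 16 were under 1 FPKM in both resistant lines.

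Interferon-stimulated genes had the highest count of shared rises of the 57 gene lists described. Of 33 tested members 18 (54.5%) were higher in both lines and none lower, against 4.6% of all tested genes. Over all tested genes 4.05% were lower in both lines, and these 2 shares stand beside every list count below. The members were IFIT1, IFIT2, IFIT3, IFI6, IFI44, IFITM3, ISG15, ISG20, OAS1, OAS2, OAS3, OASL, RSAD2, HERC5, DDX60, SAMD9, SAMD9L and PARP9. Their list had a median average change of 1.4, made of 2.11 in U251 and 0.71 in U87, beside 0.02 over all tested genes. In U251 31 of the 33 rose, and in U87 18 rose and 1 fell, so 13 members rose in U251 without a matching rise in U87. In this list and the 7 others described with none lower, limma found 0 members lower in both lines at an unadjusted p under 0.05, except 1 each among the sensors and the TGF-beta and BMP genes. The shared count was between 16 and 19 over the other settings tried, and 19 without both libraries that stood apart.

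The IFIT proteins bind foreign RNA and block its translation. IFIT2 was at 1.9, 1.91 and 1.63 FPKM in U251MG and 112, 84.3 and 92.5 in U251TR, and at 0.99, 1.42 and 1.39 in U87MG and 43.7, 37.8 and 36.7 in U87TR. IFIT1 averaged 2.87 ± 1.44 FPKM (SD, n = 3) in U251MG and 107 ± 9.65 in U251TR, and 3.31 ± 0.168 in U87MG and 52.9 ± 3.76 in U87TR. For both genes all 6 resistant libraries were above all 6 parental ones by a wide margin. IFIT2 rose 34.3-fold in U251 and 17.8-fold in U87, with an average change of 4.63 (SE 0.09). These folds are understated by the 1 FPKM added before the logarithm. IFIT1 had an average change of 4.25 (SE 0.13). The neighbouring IFIT3 rose from 2.95–4.38 to 86.7–102 FPKM in U251 and from 4.76–5.37 to 50.2–56.7 FPKM in U87, an average change of 3.73 (SE 0.09).

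RSAD2 codes for viperin, an enzyme that makes a chain-terminating nucleotide. It was at 0.71, 0.09 and 0.25 FPKM in U251MG and 36.9, 29.2 and 34.1 in U251TR, and at 0.01, 0 and 0 in U87MG against 14.1, 11.7 and 11.8 in U87TR. The parental lines had next to no RSAD2 transcript, and the resistant libraries of each line were well above them (average change 4.22, SE 0.11). OASL, an OAS-like protein that aids RNA sensing, was at 0.06, 0.13 and 0.1 FPKM in U251MG and 11.4, 8.86 and 11.2 in U251TR, and at 11.9, 12.3 and 13.2 in U87MG and 99.2, 92.1 and 95.4 in U87TR. U87MG thus held more OASL than U251TR did. With 1 FPKM added before the logarithm, OASL rose 7.16-fold in U87TR, beside 10.4-fold in U251TR. The U251 fold is strongly understated, since U251MG had next to no OASL transcript. APOL1, an interferon-induced apolipoprotein that is not on the list, went from 0.6–1.87 to 34.4–36.2 FPKM in U251 and from 3.11–4.93 to 23.1–26.4 FPKM in U87 (changes of 3.95, SE 0.2 and 2.36, SE 0.2).

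**Figure D2:**
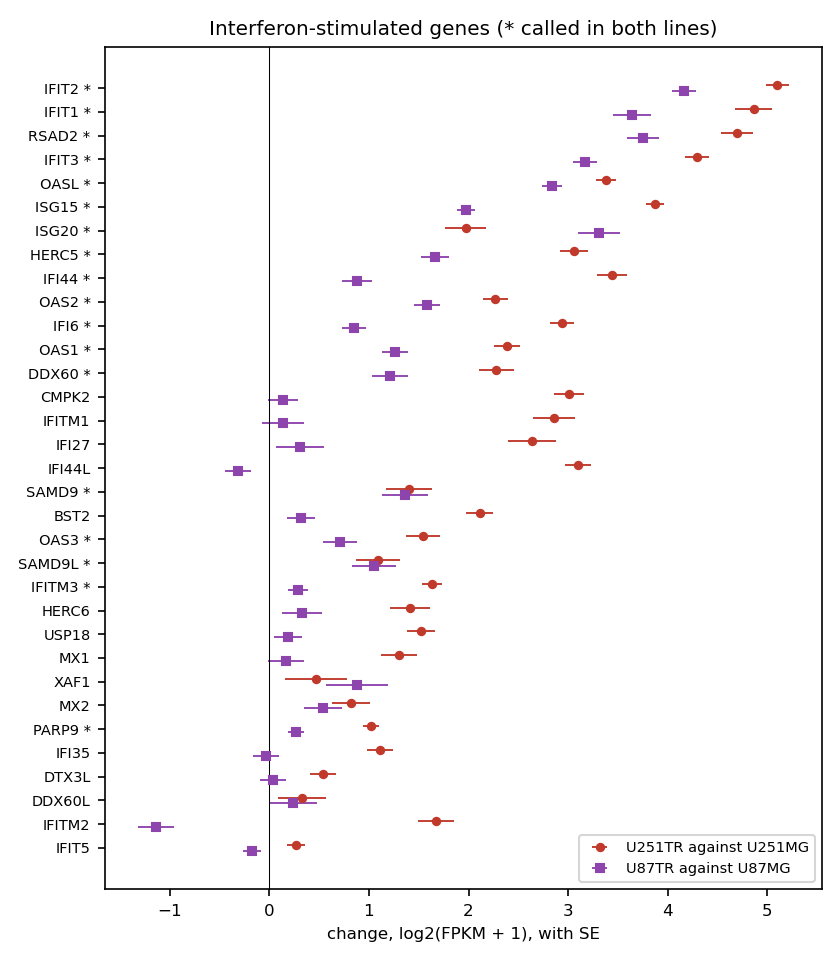
Change on the log2(FPKM + 1) scale, with its SE, of the 33 tested interferon-stimulated genes in U251TR against U251MG (red circles) and U87TR against U87MG (purple squares), ordered by the average. Stars mark the 18 genes called in both lines, and IFIT2 is at the top with 5.1 (SE 0.12) in U251 and 4.16 (SE 0.12) in U87.

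The letters that interferon-regulated factors are known to bind, the interferon-stimulated response element, stood in the promoters of several of these genes. The windows shown are the 250 bases before the RefSeq start of each gene in build GRCh38.p14, written on the gene's strand, and they are shown as examples, chosen after values were seen, of a match in genes higher in both lines. CCL5, IFIT2 and OASL had no window matched. Capitals mark matches to GAAA, any 2 bases and GAAA again on either strand, and overlapping matches run together.
IFIT1: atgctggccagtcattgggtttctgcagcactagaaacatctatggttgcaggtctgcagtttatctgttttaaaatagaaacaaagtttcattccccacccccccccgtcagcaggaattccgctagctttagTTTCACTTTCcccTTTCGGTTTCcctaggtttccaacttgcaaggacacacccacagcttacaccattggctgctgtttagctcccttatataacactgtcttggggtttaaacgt
IFIT3: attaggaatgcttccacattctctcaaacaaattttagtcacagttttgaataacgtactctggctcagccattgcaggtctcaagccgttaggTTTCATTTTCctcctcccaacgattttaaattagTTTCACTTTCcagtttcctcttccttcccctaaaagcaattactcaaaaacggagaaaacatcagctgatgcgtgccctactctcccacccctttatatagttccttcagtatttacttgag
RSAD2: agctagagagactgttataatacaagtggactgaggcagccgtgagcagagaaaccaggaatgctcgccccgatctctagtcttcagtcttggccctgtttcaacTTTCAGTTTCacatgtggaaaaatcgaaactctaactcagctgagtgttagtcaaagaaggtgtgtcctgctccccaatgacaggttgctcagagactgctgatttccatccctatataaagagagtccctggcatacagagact
CXCL10: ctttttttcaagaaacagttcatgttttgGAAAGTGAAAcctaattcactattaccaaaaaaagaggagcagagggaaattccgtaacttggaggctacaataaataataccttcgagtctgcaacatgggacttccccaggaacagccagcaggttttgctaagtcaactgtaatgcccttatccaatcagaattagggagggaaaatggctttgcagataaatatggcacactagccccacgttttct
IFNL1: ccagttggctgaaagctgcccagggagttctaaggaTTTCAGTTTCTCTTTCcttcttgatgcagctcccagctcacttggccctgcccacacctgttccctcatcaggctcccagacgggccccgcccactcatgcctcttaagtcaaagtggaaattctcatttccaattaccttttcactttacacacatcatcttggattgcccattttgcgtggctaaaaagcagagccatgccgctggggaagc
These windows are at chr10:89392373-89392622 for IFIT1, chr10:89327747-89327996 for IFIT3, chr2:6877527-6877776 for RSAD2, chr4:76023498-76023747 for CXCL10 and chr19:39296157-39296406 for IFNL1. The CXCL10 window lies on the minus strand and the others on the plus strand. IFIT1, IFIT3 and IFNL1 each had 2 matches, and the pair in IFIT1 lay 116 and 103 bases before the start.

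The same search was made in every promoter window. A match was present in 3.02% of 35116 windows and in 3.56% of 10869 tested genes with a window. It was present in 13 of 15 interferon-list genes higher in both lines (86.7%), and in 7 of 12 list genes that were tested and not shared (58.3%). Of 540 genes higher in both lines 7.22% had a match, of 501 lower genes 3.79%, and of the 525 higher genes outside the list 4.95%. For comparison, the antioxidant response letters, TGAC, any 3 bases and GC, were in 16.3% of the higher genes, 17.6% of the lower genes and 15.9% of all tested genes. These are descriptions of letters in a window, and binding was not measured.

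Genes that sense foreign nucleic acid and carry the interferon signal rose in smaller number. Of 31 tested members of that list 9 (29%) were higher in both lines and none lower: IFNL1, IFNGR2, JAK2, IRF5, DDX58, IFIH1, DHX58, TLR4 and IFI16. Over the other settings between 8 and 10 were higher, and 1 was lower without U251MG replicate 2 or 3, with the replicate block and with a filter at 5 FPKM. DDX58 codes for RIG-I, a sensor of viral RNA ends. It was at 3.48, 3.21 and 3.63 FPKM in U251MG and 79.6, 59.9 and 54.7 in U251TR, and at 3.6, 3.56 and 3.32 in U87MG and 12.9, 12.1 and 11.8 in U87TR, and the rise was larger in U251 (difference -2.31, adjusted p = 8.57e-07). The related sensor gene IFIH1, which codes for MDA5, had changes of 2.74 (SE 0.11) in U251 and 1.27 (SE 0.11) in U87. TLR4, a receptor for bacterial lipopolysaccharide, rose from 4.4–4.77 to 15.1–18.3 FPKM in U251 and from 0.74–1.06 to 4.77–6.1 FPKM in U87.

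Among the interferons themselves, the type III gene IFNL1 was listed at 0 in all 6 parental libraries. It stood at 2.74, 2.78 and 2.05 FPKM in U251TR and 1.01, 1.33 and 1.15 FPKM in U87TR (adjusted p = 5.2e-08 and 9.23e-06 by limma). IFNB1, the type I gene interferon beta, chosen here after its values were seen, was at 0.35, 0 and 0.27 FPKM in U251MG and 11.3, 8.51 and 12.5 in U251TR, and was listed at 0 in all 6 U87 libraries. Markers of leukocytes were uneven. PTPRC was at 0.08 FPKM or less in all 12 libraries. CSF1R, a myeloid marker, was between 10.69 and 15.78 FPKM in the 6 U87 libraries and at 0.51 FPKM or less in U251. The summed level of 10 myeloid markers went from 2.54 to 3.31 FPKM in U251MG to 4.07 to 7.23 in U251TR and from 204 to 223 in U87MG to 336 to 365 in U87TR, where CD68 alone was between 190.1 and 205 FPKM in U87MG and between 313 and 344 in U87TR. CD68, a lysosomal glycoprotein gene, was itself called higher in both lines, with an average change of 0.84 (SE 0.12).

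MHC class I genes, which load and display peptides on the cell surface, were higher in both lines for 8 of 18 tested members (44.4%), with none lower and a median average change of 0.54. B2M, the light chain of all class I molecules, was at 2610.2, 2524 and 2598 FPKM in U251MG and 5699, 4921 and 5723 in U251TR, and at 2964, 2899 and 2960.0 in U87MG and 5377, 5045 and 5317 in U87TR. The 6 parental libraries were below the 6 resistant ones, with changes of 1.08 (SE 0.07) and 0.83 (SE 0.07). HLA-F rose from 14.3–23.2 to 83.8–100.4 FPKM and from 9.67–11.7 to 22.3–24.8 FPKM. HLA-B, which was at 105–143 FPKM in U87MG and 9.1–15 in U251MG, rose further in U251 (2.34, SE 0.17) than in U87 (0.7, SE 0.17). HLA genes are near-identical copies and vary between people, so reads shared among them may be divided between these values. Over the other settings the count of 8 was between 6 and 8.

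CCL5, which draws T cells and monocytes, had the largest rise shared by both lines among the genes ranked by the smaller of the 2 changes. It was at 0.05, 0 and 0.02 FPKM in U251MG and 119, 88.4 and 112 in U251TR, and at 0.03, 0 and 0.07 in U87MG and 108, 81.5 and 92.1 in U87TR. From next to nothing in both parents, CCL5 reached levels that overlapped between the 2 resistant lines. The changes were 6.7 (SE 0.13) in U251 and 6.51 (SE 0.13) in U87, and no difference between them was called (adjusted p = 0.401, SE of the difference 0.18). The folds, 104 and 91.2, are understated by the 1 FPKM added before the logarithm. CXCL10, a chemokine for activated T cells, went from 0.16, 0 and 0.11 to 21.9, 17.2 and 18.3 FPKM in U251 and from 0, 0.03 and 0.11 to 9, 6.11 and 6.02 FPKM in U87. CXCL11, a ligand of the same receptor, had an average change of 2.5 (SE 0.1). These were the 3 rises (18.8%) among 16 tested chemokines, and 1 member (6.25%) was lower, or 2 without U251MG replicate 2. That member, CXCL14, fell from 310.0, 585 and 349.9 to 4.28, 8.63 and 3.56 FPKM in U251 and from 2.47, 2.41 and 2.67 to 0.02, 0.04 and 0.06 FPKM in U87. Its U87 level was low throughout, and with a pseudocount of 5 FPKM the U87 call was lost (adjusted p = 0.0608).

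Of 26 tested cytokine and NF-kB response genes 4 (15.4%) were higher in both lines and 1 (3.85%) lower, or 2 lower without U251MG replicate 2. TRAF1, a signalling adaptor, rose from 1.45–3.24 to 35.6–50.7 FPKM in U251 and from 1.32–1.78 to 5.54–5.66 in U87. BIRC3, an inhibitor of apoptosis, had changes of 3.01 (SE 0.13) and 1.27 (SE 0.13), and TNFAIP2 of 0.62 (SE 0.11) and 1.16 (SE 0.11). LIF, a cytokine of the IL6 family that supports glioma stem cells, fell from 6.38–10.3 to 3.65–4.24 FPKM in U251 and from 84–95.3 to 20–26.1 in U87, an average change of -1.41 (SE 0.11). Of 13 tested complement and serpin genes 4 (30.8%) were higher in both lines. Over the other settings there were between 2 and 5, with 2 without U87MG replicate 2 or without U87TR replicate 1. SERPINA1, which codes for alpha-1 antitrypsin, was at 0.05, 0.22 and 0.04 FPKM in U251MG and 8.59, 9.55 and 11.6 in U251TR, and at 0.76, 0.98 and 2.17 in U87MG and 36.5, 36 and 32.5 in U87TR. All 6 resistant libraries were above every parental one, with changes of 3.3 (SE 0.19) and 4.01 (SE 0.19). The complement inhibitor gene CFI rose by 2.5 (SE 0.15) in U251 and 0.83 (SE 0.15) in U87.

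MGMT had no signal in either parent. It was listed at 0 in all 6 parental libraries, and stood at 8.73, 7.7 and 9.58 FPKM in U251TR and 232, 227 and 213 FPKM in U87TR. The U87TR level was far above that of U251TR, and the change on the log2(FPKM + 1) scale differed between the lines by 4.54 (SE 0.13, adjusted p = 5.04e-10 by limma). Its promoter is printed because methylation of such a promoter is the known route to MGMT silence. Capitals mark the CpG pairs in the 250 bases before the start, at chr10:129466991-129467240 on the plus strand of GRCh38.p14.
MGMT: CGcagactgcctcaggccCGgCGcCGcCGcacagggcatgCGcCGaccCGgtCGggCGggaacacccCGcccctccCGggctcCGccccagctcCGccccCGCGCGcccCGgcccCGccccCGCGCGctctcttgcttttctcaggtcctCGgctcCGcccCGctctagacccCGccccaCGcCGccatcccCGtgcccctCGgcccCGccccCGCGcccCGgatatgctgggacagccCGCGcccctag
The window holds 36 CpG pairs, against a median of 11 over 35116 promoter windows, and 4.9% of windows hold as many. Methylation was not measured in these libraries.

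Of 20 tested genes that act on temozolomide lesions MGMT was the 1 (5%) higher in both lines, and 2 (10%) were lower. There were 2 higher without U251MG replicate 2 and with each line fitted alone. ALKBH2, a dioxygenase that reverses base methylation, fell by 0.4 on the log2 scale in U251 and 0.56 in U87. The second was APEX1, the endonuclease of base excision repair (-0.43, SE 0.14 and -0.44, SE 0.14). That call was lost with no filter, under the TPM and quantile scalings, with each line fitted alone, and without any 1 of U251TR replicate 1, U87MG replicates 1 and 2 or the 3 U87TR libraries, with a largest adjusted p from 0.0612 to 0.121. The mismatch repair genes MSH6 and PMS2 were not called in the average, with changes of -0.11 (SE 0.1) and 0.01 (SE 0.06). MSH6 fell in U251 (-0.41, SE 0.14, adjusted p = 0.0237 by limma) and had a change of 0.19 (SE 0.14) in U87.

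Aldo-keto reductases, which reduce carbonyls and lipid aldehydes, were higher in both lines for 5 of 8 tested members (62.5%), with none lower and a median average change of 1.77. AKR1C1 was at 0.59, 1.15 and 0.36 FPKM in U251MG and 43, 36 and 39 in U251TR, and at 45.6, 43.4 and 43 in U87MG and 231, 229.9 and 254 in U87TR. The U251TR and U87MG values overlapped, and the resistant libraries of each line were all above those of its parent. The rises were 24.1-fold and 5.32-fold with 1 FPKM added, which understates the U251 fold most. AKR1B10, an intestinal-type reductase, went from 1.06, 2.72 and 1.56 to 82.4, 75.6 and 86.7 FPKM in U251 and from 7.31, 6.61 and 9.56 to 28.3, 28.2 and 29.3 FPKM in U87. AKR1C2 rose by 3.99 (SE 0.15) and 1 (SE 0.15), and AKR1C3 by 3.15 (SE 0.14) and 2 (SE 0.14). For each of these 4 genes the change was larger in U251, with adjusted p of the difference between 4.52e-07 and 0.000461. AKR1C1, AKR1C2 and AKR1C3 are near-identical copies side by side on chromosome 10, so how reads were divided among them is uncertain.

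NRF2 targets outside the reductases added EPHX1 and GCLM to the shared set. Of 24 tested targets, AKR1B10 among them, 19 rose in U251 and 5 in U87, against 33.6% and 10.6% of all tested genes. In both lines 3 (12.5%) were higher, against 4.6%. That count was between 2 and 5 over the other settings, with 5 without U251MG replicate 2. EPHX1, an epoxide hydrolase, went from 94.9–111 to 306–331 FPKM in U251 and from 47.7–57.8 to 86.9–98.6 FPKM in U87. GCLM, the regulatory subunit of the first enzyme of glutathione synthesis, rose by 1.93 (SE 0.11) in U251 and 0.35 (SE 0.11) in U87. The U87 call of GCLM was lost with no filter and without any 1 of the U251TR or U87TR libraries or U87MG replicate 2, with adjusted p from 0.0507 to 0.162. Among 18 tested glutathione transferases and peroxidases 3 (16.7%) were higher in both lines. GSTA4, which conjugates the lipid aldehyde hydroxynonenal, rose by 1.54 (SE 0.14) and 1.02 (SE 0.14), and MGST3, a membrane transferase, by 0.58 (SE 0.1) and 0.54 (SE 0.1). MGST2 rose by 0.76 (SE 0.2) and 0.96 (SE 0.2), but its U87 level was at most 2.7 FPKM and the U87 call was lost with a pseudocount of 5 FPKM (adjusted p = 0.132). ALDH9A1, an aldehyde dehydrogenase, was the 1 of 15 tested members of its family that rose in both lines (3 without U251MG replicate 2), from 26.8–29.2 to 50.4–52.3 FPKM and from 19.4–19.8 to 46.2–52.2 FPKM.

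Genes known to hold off ferroptosis, a death by lipid peroxidation, were higher in both lines for 6 of 27 tested members (22.2%). None was lower. The count higher was between 5 and 8 over the other settings, and 2 members were lower without U251MG replicate 2. The 3 AKR1C genes are among the 6. AIFM2, the gene of the ubiquinone-reducing enzyme FSP1, went from 13.4, 11.9 and 12.2 to 38.1, 40.1 and 43.3 FPKM in U251 and from 13.7, 13.8 and 10.6 to 18.1, 18.9 and 20.1 FPKM in U87, with no overlap in either line. HSPB1, a small heat shock protein, had changes of 1.88 (SE 0.19) and 0.73 (SE 0.19). GPX4, the peroxidase at the centre of the pathway, and SLC7A11, its cystine supplier, were not called in the average (-0.11, SE 0.06 and -0.12, SE 0.2). Without U251TR replicate 3 GPX4 passed at -0.15 (adjusted p = 0.043), and without U251MG replicate 2 SLC7A11 passed at -0.33 (adjusted p = 0.0207). FTH1, ferritin heavy chain, was called in the average (0.75, SE 0.1) on a U251 change of 1.55 (SE 0.14), while its U87 change was -0.05 (SE 0.14). Of 25 tested ferroptosis drivers 1 (4%) was higher in both lines, or 2 without U251MG replicate 2, and none lower. ACSL4, a driver that loads polyunsaturated lipids, had a change of -0.7 (SE 0.13) in U251 and 0.06 (SE 0.13) in U87. Its average call was lost after rescaling to TPM (adjusted p = 0.0584). Of 11 tested drug efflux transporters 1 (9.09%) was higher in both lines. ABCC2, an efflux pump for conjugates, rose in U87 from 2.9–3.83 to 41.2–51.4 FPKM, while it was at 0.46 FPKM or lower in all 6 U251 libraries.

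**Figure D3:**
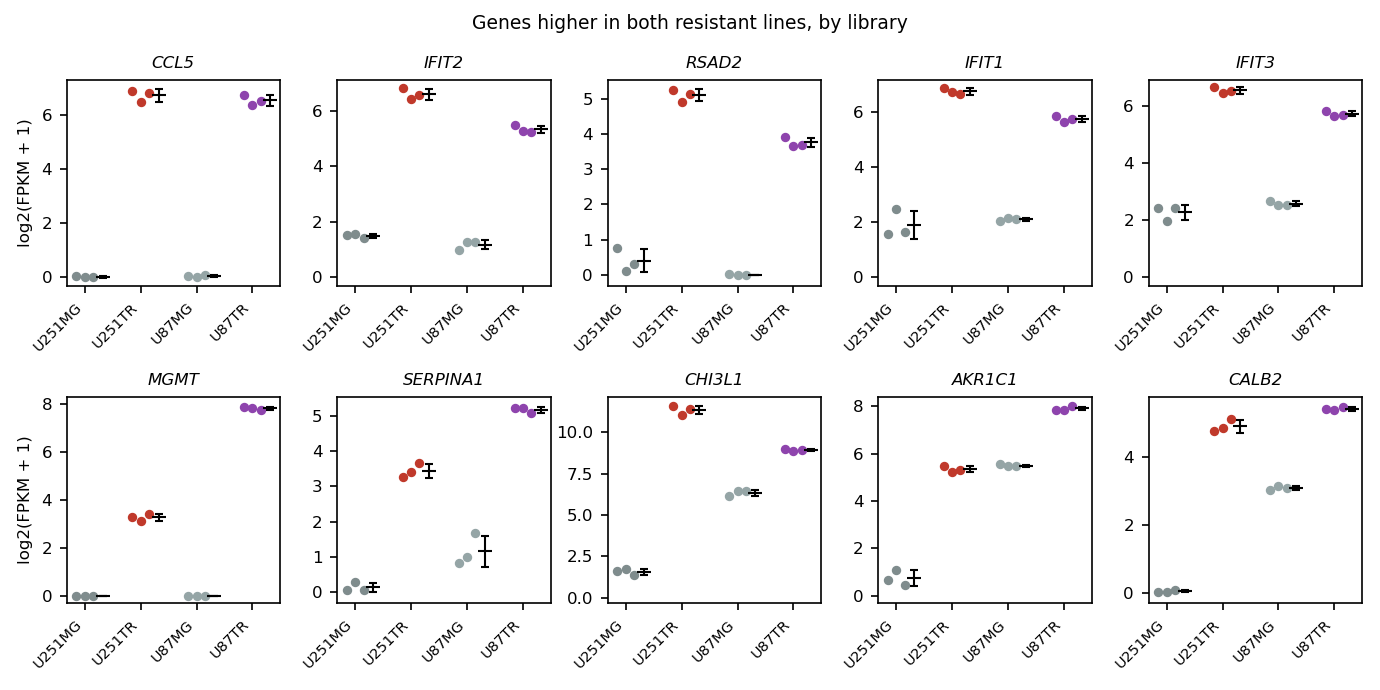
Level of 10 genes higher in both resistant lines, as log2(FPKM + 1), with 1 point per library and, beside each group, the mean with the SD of its 3 libraries. Axes differ between genes. In every panel the 3 resistant libraries are above the 3 libraries of their own parent. That was a condition of the choice for all but MGMT and SERPINA1. MGMT is listed at 0 in all 6 parental libraries.

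CHI3L1 and CALB2 rose from unlike parental levels. CHI3L1, a chitinase-like glycoprotein of mesenchymal glioblastoma, was at 2.07, 2.34 and 1.63 FPKM in U251MG and 3028, 2138 and 2746 in U251TR, and at 69.3, 86 and 85.5 in U87MG and 502, 463 and 495 in U87TR. It rose in both, by 9.77 (SE 0.13) and 2.59 (SE 0.13), and the changes differed by -7.17 (adjusted p = 4.34e-10). CALB2, the calcium-binding protein calretinin, was at 0.02, 0.02 and 0.05 FPKM in U251MG and 26.1, 27.9 and 34.1 in U251TR, and at 7.23, 7.91 and 7.54 in U87MG and 41.8, 40.6 and 44.1 in U87TR. The U87MG libraries were above those of U251MG, and each resistant line was above its parent. CHI3L1 and FN1 were the 2 (9.52%) of 21 tested mesenchymal genes higher in both lines. That count was between 1 and 5 over the other settings, with 4 without U87MG replicate 3 and 1 without U251MG replicate 1 or U251TR replicate 1. None was lower in both lines, but 1 was without U251MG replicate 2. In the average 8 of the 21 were higher and 7 lower, beside 27.4% and 22.2% of all tested genes. VIM went from 1298–2474 to 773–859 FPKM in U251 and from 4552–5373 to 3819–4266 FPKM in U87. FN1, fibronectin, rose by 0.59 (SE 0.19) in U251 and 2.18 (SE 0.19) in U87. Its U251 call was lost with median-of-ratios scaling (adjusted p = 0.0674) and without U251MG replicate 1 (0.0638) or U251TR replicate 1 (0.0633).

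Matrix proteases and their inhibitors moved both ways. Of 26 tested members 4 (15.4%) were higher and 5 (19.2%) lower in both lines. The higher count was between 2 and 5 over the other settings, with 2 at a filter of 5 FPKM, and the lower count between 3 and 5, with 3 at a pseudocount of 0.1 or 5 FPKM. TIMP3, an inhibitor held in the matrix, was at 11.9, 4.66 and 11.7 FPKM in U251MG, 17.8, 20.1 and 20.3 in U251TR, 23.2, 24.6 and 54.4 in U87MG and 507, 406 and 378 in U87TR. The U87 groups were far apart and the U251 groups closer, and the U251 call was lost without U251MG replicate 2 (adjusted p = 0.0784) or U251TR replicate 3 (0.0521). TIMP4, a second inhibitor, rose by 2.24 (SE 0.13) and 0.98 (SE 0.13), and MMP7, matrilysin, by 1.4 (SE 0.14) and 1.15 (SE 0.14). ADAMTS6, a secreted protease, fell by 1.9 on the log2 scale in U251 and by 1.06 in U87. Of 24 tested integrins and laminins 4 (16.7%) were higher and 2 (8.33%) lower, and 1 lower without U87TR replicate 3. ITGA6, a laminin receptor subunit of glioma stem cells, rose from 18.9–22.1 to 46.2–50.7 FPKM in U251 and from 0.9–1.23 to 6.07–6.96 FPKM in U87, and LAMB3, a laminin chain, by 1.66 (SE 0.14) and 0.79 (SE 0.14).

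The falls shared by both lines had smaller median sizes than the rises. MYEOV, a gene named for its overexpression in myeloma, led the falls ranked by the smaller of the 2 line changes. That ranking took only genes with 10 FPKM or more in the higher group of each line and no overlap between libraries. CXCL14, whose smaller change was larger at -1.76 (SE 0.26), did not reach that level in U87. MYEOV was at 23.1, 9.72 and 24.7 FPKM in U251MG and 8.89, 4.62 and 3.83 in U251TR. In U87MG it was at 51, 43 and 35.4 FPKM, and in U87TR at 1.09, 1.36 and 7.74. The U251 libraries were spread widely, with the lowest parental value close to the highest resistant one. Its U251 call was lost with no filter and without any 1 of U251MG replicates 1 and 3 and U251TR replicates 2 and 3, with adjusted p from 0.0538 to 0.0866, and its U87 change of -3.64 (SE 0.5) became -4.3 without U87TR replicate 3. HDAC9, a class IIa histone deacetylase, was at 41, 25 and 44.6 FPKM in U251MG and 8.12, 9.73 and 8 in U251TR, and at 13.5, 13 and 10.4 in U87MG and 3.74, 4.11 and 4.09 in U87TR. No resistant library reached its parent's, and the fall was 1.94 on the log2 scale in U251 and 1.41 in U87. A chromatin list held genes of DNA methylation and histone deacetylation, with EZH2 beside them. Of its 23 tested members 3 (13%) were lower in both lines and 1 (4.35%) higher. The lower count was between 2 and 5 over the other settings. The higher gene was EZH2, the histone methyltransferase of the Polycomb complex (0.49, SE 0.08 and 0.47, SE 0.08).

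Transcription factor genes were among the named falls. HOXB3, a homeobox factor, went from 207, 133 and 197 to 35, 35.4 and 33.9 FPKM in U251 and from 11.4, 12.1 and 11 to 3.98, 3.99 and 4.75 FPKM in U87. TBX3, a T-box repressor, went from 13.9, 18.7 and 13 to 5.14, 5.92 and 5.31 FPKM in U251 and from 34.1, 32.6 and 33.4 to 15.1, 13.9 and 13.2 FPKM in U87. NR2F1, an orphan nuclear receptor, went from 10.9, 21 and 9.19 to 6.06, 4.62 and 5.06 FPKM in U251 and from 40.8, 37.7 and 38.8 to 13.2, 11.5 and 15.4 FPKM in U87. In these 3 genes the resistant libraries were below the parental ones in each line, as their choice required. MEST, an imprinted gene with a hydrolase-like product, fell from 16.8–40.4 to 6.96–9.23 FPKM and from 38.9–43.3 to 14.4–16.7 FPKM. It was the 1 of 10 tested imprinted genes that changed in both lines, and without U251MG replicate 2 there were 2 lower.

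Metabolic and cytoskeletal genes completed the 10 largest falls above that level. ODC1, the first enzyme of polyamine synthesis, was at 393, 255 and 359.6 FPKM in U251MG and 123, 133 and 140.5 in U251TR, and at 161, 159 and 96.4 in U87MG and 54.9, 61 and 62.5 in U87TR. PDP1, the phosphatase that activates pyruvate dehydrogenase, fell from 144–159.7 to 45.6–58.6 FPKM in U251 and from 19.4–32.6 to 9.97–11.2 FPKM in U87. The FERM-domain genes FRMD4A and FRMD6 fell as well, FRMD4A by 2.53 and 1.25 on the log2 scale in U251 and U87. FRMD6, an upstream member of the Hippo pathway, fell by 1.28 and 1.23.

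**Figure D4:**
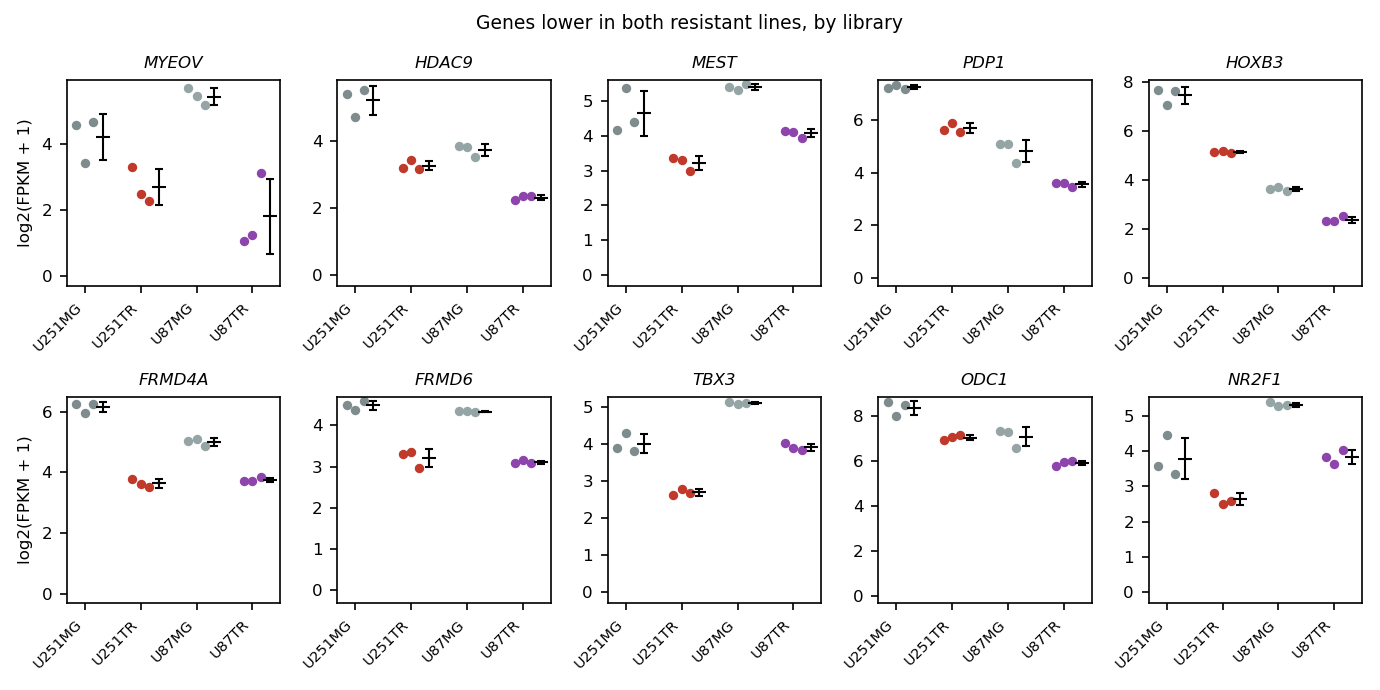
Level of the 10 genes with the largest falls shared by both lines among those with 10 FPKM or more in the higher group of each line, as log2(FPKM + 1), with 1 point per library and, beside each group, the mean with the SD of its 3 libraries. Axes differ between genes. In every panel the 3 resistant libraries are below the 3 of their own parent, which was a condition of the choice. The least margin is that of MYEOV in U251.

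Of 28 tested growth-factor receptor and output genes 4 fell in both lines (14.3%, against 4.05% of all tested genes) and 1 rose (3.57%, against 4.6%). Over the other settings there were between 4 and 8 falls, 8 of them without U251MG replicate 2, and 1 or 2 rises, 2 of them without U251MG replicate 2 or U87MG replicate 3. MYC went from 174, 177 and 172 to 57.5, 67.2 and 65.8 FPKM in U251 and from 31.6, 34.3 and 37.5 to 22.5, 24.9 and 25.9 FPKM in U87, and the fall was larger in U251 (-1.45, SE 0.09 against -0.48, SE 0.09). JUN, a subunit of AP-1, fell by 0.58 and 0.51 on the log2 scale, and SPRY4, a feedback inhibitor of receptor signalling, by 0.63 and 0.71. EGR1, an immediate early transcription factor, was the 1 that rose, from 8.3–14.1 to 22.5–29.7 FPKM and from 6.04–7.54 to 12.5–17.3 FPKM. CCND1, cyclin D1, fell from 116–184 to 39.2–41.7 FPKM in U251 and from 240.0–269 to 116–143 FPKM in U87, with no overlap in either line. F2R, the thrombin receptor, fell by 1.84 and 1.07, and AMOTL2, a YAP target and inhibitor, by 0.77 and 0.93. AMOTL2 was among 2 (8.33%) of 24 tested YAP targets that fell in both lines.

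Developmental signalling genes were split. NOTCH1 fell from 33.8–35.5 to 17.7–17.9 FPKM in U251 and from 5.84–6.23 to 2.17–2.5 FPKM in U87, and was the 1 of 13 tested Notch genes to change in both. Of 28 tested WNT pathway genes 3 (10.7%) were higher and 2 (7.14%) lower. Over the other settings between 1 and 4 were lower, with 1 without U87MG replicate 1 or 2. The receptors FZD6 and FZD7 rose, FZD6 by 0.71 (SE 0.08) and 0.73 (SE 0.08) and FZD7 by 0.99 (SE 0.09) and 1.38 (SE 0.09). The ligand WNT7B fell by 1.75 in U251 and 0.8 in U87. Of 28 tested TGF-beta and BMP genes 3 (10.7%) were higher and none lower, though 2 were lower without U251MG replicate 2 and 3 with quantile normalization. The higher genes include the ligand TGFB3 (1.15, SE 0.2 and 1.52, SE 0.2) and the BMP-induced inhibitor ID4, which went from 0.57–0.92 to 3.89–4.34 FPKM and from 0.33–0.72 to 3.46–3.88 FPKM. CADM1, an immunoglobulin-like adhesion molecule, fell from 79.5–107 to 17.9–19.8 FPKM in U251 and from 4.15–5.53 to 1.3–1.69 FPKM in U87, and SEMA3A, a repulsive guidance cue, by 1.81 and 0.8 on the log2 scale. Among 9 tested astrocyte markers, the glutamate transporter gene SLC1A3 fell in both lines (-2.37, SE 0.13 and -0.91, SE 0.13). GFAP rose from 18.3–29.9 to 381–415 FPKM in U251. In U87 GFAP was at 0.51, 0.34 and 1.41 FPKM in the parent and 1.78, 2.28 and 1.19 in U87TR, groups that overlap, and the U87 call (adjusted p = 0.0438) was lost in most other settings, among them no filter and leaving out any 1 of U251MG replicate 1, the U251TR libraries, U87MG replicates 1 and 2 or U87TR replicates 1 and 2, with a largest adjusted p from 0.0516 to 0.233.

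In most other gene lists few or none of the members changed in both lines. Over all tested genes 27.4% were higher and 22.2% lower in the average, and 4.6% and 4.05% in both lines. In U251 33.6% of all tested genes rose and 19.6% fell, and in U87 10.6% rose and 17.2% fell. Of 28 tested genes of G2 and mitosis 17 were higher in the average and 1 (3.57%) in both lines. There were 24 rises in U251 and 1 in U87. The shared count was between 0 and 3 over the other settings, with 3 without U251MG replicate 2 and 0 without any 1 of U251TR replicates 1 and 2, the U87MG libraries and the U87TR libraries. Of 35 ribosomal protein genes 25 were lower in the average and 3 (8.57%) in both lines, with 29 falls in U251 and 5 in U87. The count lower in both lines was between 0 and 6 over the other settings, with 0 without U87MG replicate 2 and 1 without U87TR replicate 1 or 2. Of 30 tested lysosomal genes 15 were higher and 5 lower in the average and none in both lines by limma, with 0 changed in both lines at an unadjusted p under 0.05, and 1 higher without U251MG replicate 2 or U87MG replicate 3. None of 24 tested ATF4 and amino acid response genes was called in the average by limma, and 3 had an unadjusted p under 0.05. None of 23 tested cholesterol synthesis genes changed in both lines by limma (0 at an unadjusted p under 0.05, but 4 higher without U251MG replicate 2), with 7 higher and 4 lower in the average. Of 29 tested glycolysis and hypoxia genes 1 (3.45%) was lower in both lines and none higher. None of 28 tested DNA replication and nucleotide supply genes changed in both lines. Leaving out both libraries that stood apart gave 11 and 5 members higher in these 2 lists, beside 1123 of all tested genes. Transcripts of the mitochondrial genome, a mark of RNA quality, were lower in both lines for 3 of 13 (23.1%, against 4.05% of all tested genes), 1 without U87MG replicate 2 or U87TR replicate 3, and 0 with quantile normalization, where 1 was higher. Their summed level was 57290 to 63680 FPKM in U251MG, 48760 to 51540 in U251TR, 59840 to 64050 in U87MG and 57610 to 58220 in U87TR. The part of these transcripts in the other changes was not tested.

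Chaperones and the proteasome gave modest shared rises. Of 19 tested endoplasmic reticulum stress genes 5 (26.3%) were higher in both lines and none lower. HSP90B1, the chaperone GRP94, went from 133, 175 and 140.3 to 230.2, 216 and 191 FPKM in U251 and from 411, 406 and 439 to 719, 653 and 667 FPKM in U87. The count was between 2 and 7 over the other settings, with 3 without any 1 of U87MG replicates 1 and 2 and U87TR replicate 1, and 2 without U87TR replicate 3. Of 25 tested proteasome subunits 4 (16%) were higher in both lines, between 2 and 9 over the other settings. It was 2 without any 1 of U87MG replicates 2 and 3 and U87TR replicates 2 and 3, and 7 without U251MG replicate 2. PSMB2, a subunit of the catalytic core, rose by 0.66 (SE 0.08) in U251 and 0.44 (SE 0.08) in U87.

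**Figure D5:**
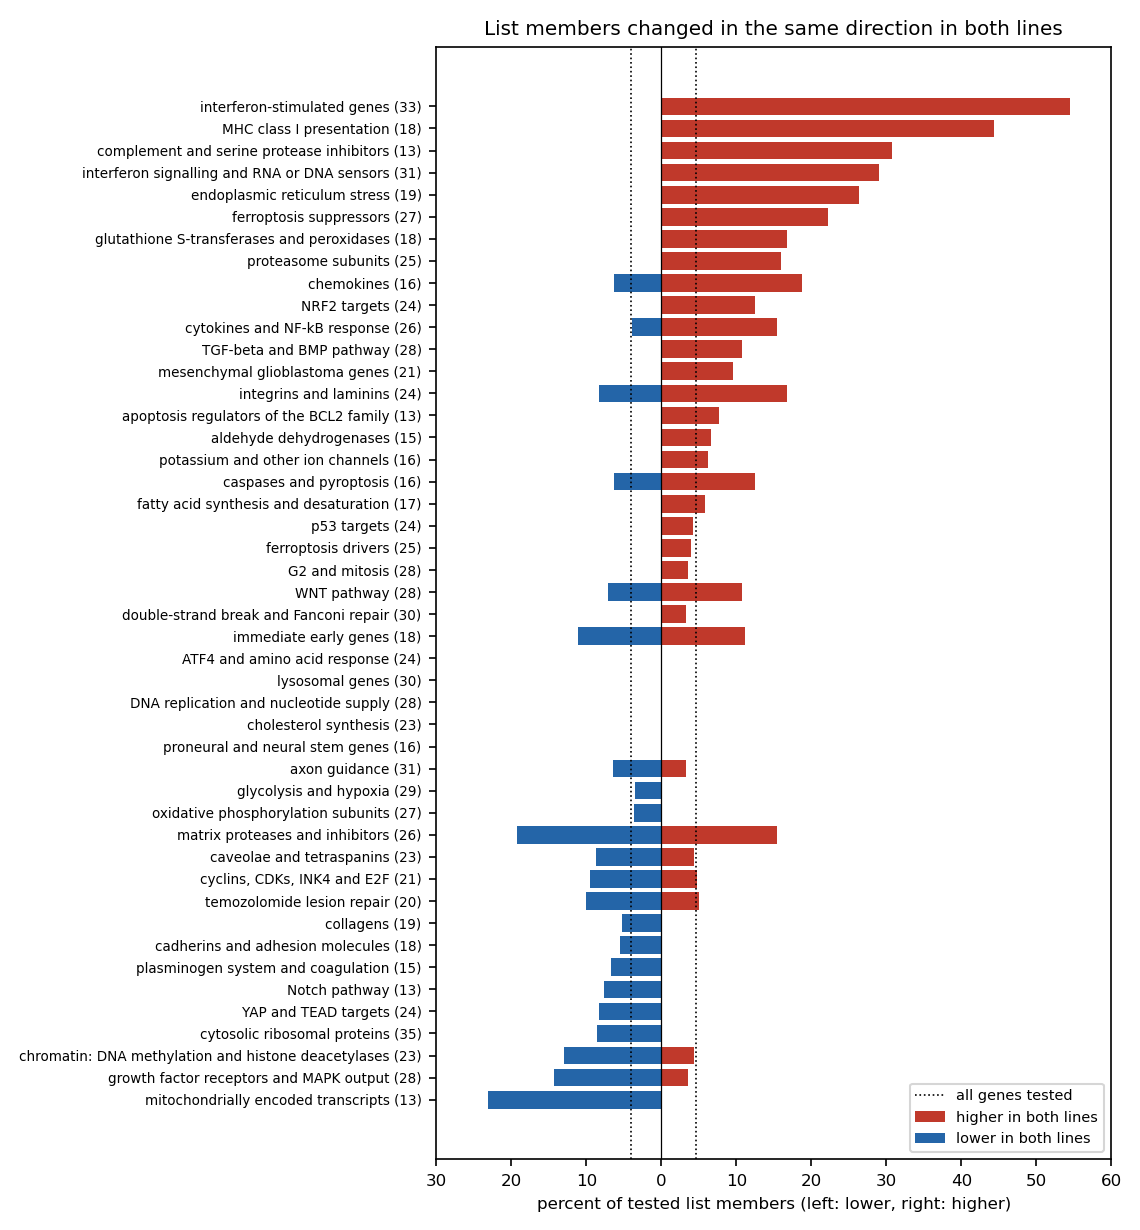
Percent of the tested members of each gene list that were higher (red, to the right) or lower (blue, to the left) in both lines, for lists with at least 13 tested members, whose number stands in brackets. Dotted lines mark the shares over all tested genes, 4.6% higher and 4.05% lower, and interferon-stimulated genes reach 54.5%.

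Among genes of at least 2-fold change in each line, with 10 FPKM or more in the higher group of each line and no overlap, the 5 whose line changes were nearest to each other were MEST, FRMD6, APLP1, SAMD9L and AKAP2. APLP1, an amyloid precursor relative, was at 10.1, 8.44 and 10.7 FPKM in U251MG and 24.9, 24.1 and 24.1 in U251TR, and at 22.9, 22.4 and 29.5 in U87MG and 63.1, 56.1 and 62.3 in U87TR. Its changes were 1.24 (SE 0.11) and 1.25 (SE 0.11), and each resistant line was clear of its parent. SAMD9L, an antiviral and growth-restraining gene, rose by 1.09 (SE 0.22) and 1.05 (SE 0.22), and AKAP2, an anchor for protein kinase A, fell by 1.18 and 1.14 on the log2 scale. Likeness was measured as the smallest difference between the 2 line changes, over 6 libraries a line.

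An average over both lines also passes where 1 line alone moved. Of the 7669 average calls 1336 (17.4%) were the shared set, 4253 (55.5%) passed in U251 alone and 1323 (17.3%) in U87 alone. In 355 (4.6%) the lines passed in opposite directions, and in 402 (5.2%) neither line passed by itself, all of them with the same sign in both. The difference between the lines was itself called in 3046 of the U251 genes and 850 of the U87 genes. MSMP, a secreted chemoattractant, was at 0.69, 0.49 and 0.56 FPKM in U251MG and 279.9, 161 and 298 in U251TR, and was listed at 0 in all 6 U87 libraries. The YAP target ANKRD1 was at 103, 87.3 and 112 FPKM in U251MG, 0.95, 1.08 and 0.83 in U251TR, 0.38, 0.33 and 0.32 in U87MG and 0.27, 0.34 and 0.51 in U87TR. SPARCL1, a matrix glycoprotein, rose from 0.79–0.88 to 73.5–113 FPKM in U251 and did not pass 0.12 FPKM in U87. These 3 genes had average changes of 3.62 (SE 0.13), -2.83 (SE 0.08) and 2.82 (SE 0.1) that came from U251.

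In U87 the tetraspanin gene CD81 was at 169, 169.9 and 183 FPKM in the parent and 0.08, 0.29 and 0.01 in U87TR, while it was 155–198 FPKM in U251MG and 145–164 in U251TR. Its average change of -3.71 (SE 0.08) held a U87 change of -7.28 (SE 0.11) and a U251 change of -0.14 (SE 0.11). SNX6, a sorting nexin, went from 36.5, 38.7 and 42.4 to 1.08, 1.03 and 1.1 FPKM in U87, with a U251 change of -0.13 (SE 0.08) that passed with median-of-ratios scaling (adjusted p = 0.0194). C10orf118 went from 3.09, 2.05 and 2.19 to 79.5, 70 and 60.3 FPKM in U87 and changed by 0.16 (SE 0.17) in U251. CD81, SNX6 and C10orf118 were thus called in the average from changes of U87 libraries.

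Some shared genes were neighbours. Among tested genes in RefSeq order there were 19 runs of 3 or more adjacent genes called in the same direction in both lines, 13 higher and 6 lower, the longest of 6 genes. The runs on chromosome 10 held AKR1C1, AKR1C2 and AKR1C3, then IFIT2, IFIT3 and IFIT1, then ACTA2, FAS and CH25H, and, lower, ZMYND11, DIP2C, LARP4B and GTPBP4. On chromosome 12 a run held OAS1, OAS3 and OAS2, and on chromosome 2 a run held HOXD13, HOXD11 and HOXD10. Chromosome 1 had 6 runs, all higher, among them MGST3, ALDH9A1, TMCO1 and UCK2, and the longest, TIPRL, SFT2D2, TBX19, ATP1B1, NME7 and BLZF1. On chromosome 19 there were 3 lower runs of zinc finger genes. ZNF625 and the joined name ZNF625-ZNF20 count there as separate genes. The run of CCDC103, GFAP and FAM187A needs the U87 call of GFAP, which was lost in most other settings. The genes of these runs were taken as found, after their values were seen, and copy number was not measured. How many runs the shares over all tested genes would give was not computed.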

How the data were processed

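RNA of 12 libraries, 3 from each of U251MG, U251TR, U87MG and U87TR, was sequenced as 150 bp pairs, per the labels. STAR 2.5.2b and RSEM 1.2.31 are listed in the submitters' processing notes, which give hg19 where the design text gives hg38, so no gene coordinate of the authors is printed. The deposited values are FPKM by gene symbol, a unit that was inferred from the values and is not stated in the sources used here. Of 31681 rows, 27 had symbols that a spreadsheet had turned into dates and were left out. From the deposited FPKM, log2(FPKM + 1) was computed, and a group-means model was fitted to all 12 libraries with limma 3.58.1 in R 4.3.3, with a trend and robust moderation and two-sided tests. Genes with at least 1 FPKM in 3 libraries were tested, 15449 of 31654. Fold changes come from that scale, which understates the change of weakly expressed genes, and SE is the standard error of the fit. The fit was tested on simulated data.

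The comparison, its members and the 57 gene lists were chosen with earlier results of these data known, so a list's count is a description and has no test of its own. Named genes were the 10 largest rises and falls in both lines, ranked by the smaller change, with a plain symbol, 10 FPKM or more in the higher group of each line and no overlap between libraries. Also named, per list, were at most 4 shared members by size (or 2 by average change where no member was shared), 12 fixed genes of repair, ferroptosis, reductases and efflux, the 5 genes whose line changes differed least, and per line the 3 largest average changes with under 0.2 in the other line. IFNB1, genes printed by name alone and the genes of neighbour runs were chosen after their values were seen. Some genes that the rule named are not reported here. Alternatives were pseudocounts of 0.1 and 5 FPKM, no filter, a filter at 5 FPKM, 3 scalings, a replicate block, no trend or robust moderation, each line fitted alone, and leaving out each library. Leaving out both libraries that stood apart was chosen after seeing the data. Promoter windows and gene order are from RefSeq, GRCh38.p14.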

Additional observations from a re-analysis of the deposited data

Results flagged for a closer look

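For 62 of the 95 named genes the change in U87 differed from the change in U251 by limma's test of the difference itself (adjusted p under 0.05), which is why they are listed here. The values below are the U87 change minus the U251 change on the log2(FPKM + 1) scale. A gene that fell in both lines has a positive value where the fall was larger in U251, and a gene that rose in both has a negative value where the rise was larger in U251.

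Among the repair genes the difference was 4.54 for MGMT and 0.6 for MSH6. On this scale interferon-stimulated and related antiviral genes rose further in U251, with -1.22 for IFIT1, -0.94 for IFIT2, -1.12 for IFIT3, -0.94 for RSAD2, -0.54 for OASL and -1.59 for APOL1. The sign turned for RSAD2 with a pseudocount of 0.1 FPKM (0.47) and for OASL with 5 FPKM (0.92). The sensors and interferon genes gave -2.31 for DDX58, -1.47 for IFIH1, -0.7 for IFNL1 and -3.28 for IFNB1, and the class I genes -1.64 for HLA-B and -1.24 for HLA-F. IFNB1 was called in U251 alone. Chemokine, cytokine and NF-kB genes gave -1.28 for CXCL10, -1.04 for CXCL11, 4.27 for CXCL14, -2.4 for TRAF1, -1.74 for BIRC3, 0.54 for TNFAIP2 and -0.9 for LIF. Complement and serpin genes gave 0.72 for SERPINA1 and -1.67 for CFI.

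For the reductases, transferases and other detoxifying genes the values were -2.18 for AKR1C1, -2.99 for AKR1C2, -1.15 for AKR1C3, -3.17 for AKR1B10, -1.58 for GCLM, -0.85 for EPHX1, -0.53 for GSTA4 and 0.42 for ALDH9A1. The ferroptosis and efflux genes gave -1.06 for AIFM2, -1.15 for HSPB1, -1.6 for FTH1, 0.76 for ACSL4 and 3.29 for ABCC2. Secreted, matrix and adhesion genes gave -7.17 for CHI3L1, -2.54 for CALB2, 1.59 for FN1, 2.66 for TIMP3, -1.26 for TIMP4, 0.74 for ITGA6, -0.86 for LAMB3, 0.83 for ADAMTS6, 0.96 for CADM1 and 1.01 for SEMA3A. Growth, developmental, signalling and glial genes gave -2.1 for MYEOV, 1.05 for HOXB3, 1.28 for FRMD4A, 0.91 for CCND1, 0.97 for MYC, 0.39 for FZD7, 0.96 for WNT7B, 1.46 for SLC1A3, -3.41 for GFAP and 0.77 for F2R. The genes named because the average rested on 1 line gave -7.24 for MSMP, 5.72 for ANKRD1, -5.55 for SPARCL1, -7.14 for CD81, -4.15 for SNX6 and 4.21 for C10orf118.

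In 48 of the 62 genes the difference kept its sign and its call in every setting that tested it. IFNL1, among the 48, was not tested with the filter at 5 FPKM. Fitting each line alone gave no test of the difference. The other 14 lost or turned it in at least 1 setting: RSAD2, CXCL10, CXCL11, SERPINA1, GSTA4, OASL, TIMP4, ITGA6, ADAMTS6, FZD7, WNT7B, MSH6, MYEOV and LIF. That happened in 15 settings for GSTA4, 13 for SERPINA1, 9 for MYEOV and 8 for ADAMTS6, and in 5 or fewer for the rest.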

How the results depend on the processing

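Among the 95 named genes the average change kept its side of the threshold in every setting that tested it, except for ACSL4, GPX4 and SLC7A11. Where it was called it also kept its direction. Directions of uncalled changes, such as that of PMS2, were not checked. Of 81 named genes changed in both lines 73 kept all calls in every setting that tested them. IFNL1, ID4 and MMP7, for example, had no library at 5 FPKM, so the filter at 5 FPKM left them untested. Rescaling to TPM moved the median U251 change of all tested genes from 0.1 to 0.2, and quantile normalization moved it to -0.01. With TPM 66.3% of average calls and 68.7% of the shared genes were higher, and 406 genes were lower in both lines. Without both U251MG replicate 2 and U87MG replicate 3, 2195 genes were shared, 1123 higher and 1072 lower. Requiring the average call and separate libraries in each line, with no test per line, gave 2344 genes, and at least a 2-fold change gave 130 in both lines and 696 in the average. The shared set kept 1026 of its 1336 members under quantile normalization and 1112 under TPM.

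Leaving out each library gave 6928 to 8725 average calls, 54.3% to 56.3% of them higher, 6537 to 8425 differences between the lines, and 945 to 1863 shared genes, of which 519 to 991 were higher and 426 to 872 lower, a share of 50.9% to 55.2% higher. The difference between the lines turned for RSAD2 (0.47, adjusted p = 0.516) and SERPINA1 (-0.94, 0.156) with a pseudocount of 0.1. With a pseudocount of 5 it turned for OASL (0.92, 2.25e-05), TLR4 (-0.34, 0.0141), ITGA6 (-0.08, 0.509), NOTCH1 (0.2, 0.0496) and FZD7 (-0.03, 0.755). The cause was not tested.

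Replicate numbers showed no clear pairing of the libraries. Of 18 pairs with the same number 2 had a correlation of deviations over 0.1 (range -0.06 to 0.13), and 14 of 36 were best with their own number. Whether libraries of the same number were handled together was not tested. With the replicate block 1260 genes were shared, 1216 of them among the 1336. Depth is unknown, so what it limits could not be given.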
